A study of Mus musculus with 24 samples.

Results

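Mammary fat from the side opposite the tumor was compared between mice on a high-fat diet and mice on chow, using the libraries labelled HFD and contralateral against those labelled Chow and contralateral. The comparison covered 8 of the 24 libraries of the series, 4 on each diet, and all 15913 of the 39017 genes in the deposited table that passed the filter on low counts. The fat was subcutaneous, taken at the 4th mammary gland from C57BL/6 mice and flash frozen, and its total RNA was treated with DNase and depleted of ribosomal RNA before sequencing. Both groups come from tumor-bearing mice: the series describes lean and obese animals and fat near and far from a breast tumor, so the Chow contralateral mice carried a tumor as well. The tumor cells, the sex and age of the mice, the composition of the diets and the time on them do not appear in the labels. Nor do the labels tie the 4 libraries of a group to 4 different mice, so each p-value rests on a spread among libraries that could be technical. For reference, 8 libraries of fat labelled no tumor, 4 on each diet, were used to test where the diet difference was not the same.

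White fat stores fatty acids as triglyceride in a lipid droplet. Adipocytes take fatty acids from the blood through lipoprotein lipase and membrane carriers, make some from glucose by de novo synthesis under the transcription factors SREBP1c and ChREBP, and release them by lipolysis, which adrenergic and natriuretic peptide signals promote and insulin, lactate and adenosine restrain. In obesity adipocytes enlarge, leptin rises, macrophages that engulf lipid collect, and the matrix around the cells is remodelled. The mammary fat pad also holds the milk ducts, whose epithelium carries progesterone and prolactin receptors, together with vessels, nerves and a lymph node.

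Levels are counts-per-million values (CPM), scaled to library size and given as mean ± SD over 4 libraries per group unless single libraries are listed, and always with HFD first. Differences are log2 fold changes of HFD over Chow ± SE from edgeR's quasi-likelihood test, and a gene was called where the Benjamini-Hochberg adjusted p over all genes tested was under 0.05. Fewer cells of a type and less RNA per cell cannot be told apart in bulk tissue. The fat markers were present in every library: Adipoq, the adiponectin gene, stood at 1248, 1324, 1484 and 1201 CPM in Chow replicates 1 to 4 and at 2573, 2579, 2584 and 2772 CPM in HFD replicates 1 to 4.

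The libraries differed in ways besides diet. Total counts ran from 11686381 to 13849031 on Chow and from 16668320 to 17287693 on HFD, so depth and diet cannot be told apart. The summed level of 18 skeletal muscle markers was 5942, 4205, 165 and 3353 CPM in Chow replicates 1 to 4, against 105 to 133 CPM on HFD, so replicate 3 was the Chow library nearest to HFD in muscle RNA. Gm42418, a noncoding gene that overlaps a ribosomal RNA repeat, took 11.4% of counts in Chow replicate 2 and at most 0.9% in each of the other 7 libraries. Lymph node stroma markers summed to 91.5 CPM in Chow replicate 4 and to 1.79 to 11.1 CPM in the other 7. With the mean of the muscle markers as a covariate, 1042 genes were called higher and 1085 lower in place of 3900 and 3947, and the counts under that covariate are given with or after most of the lists. Of the 219 genes named in the text, 83 lost their call with it and 1 changed direction (Gbp7). Diet accounted for 70.7% of the variance of that covariate over the 8 libraries, an overlap that alone widens standard errors 1.85-fold, so a lost call does not show that a difference went away. Among the genes that lost their call, the log2 fold change was as large or larger in 23, smaller by up to 1.5 times in 38 and smaller by more in 22.

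About as many genes rose as fell on HFD, but the larger changes were mostly decreases. Of the 15913 genes, 3900 were called higher (24.5%) and 3947 lower (24.8%), which is the background for every list below. More than 2-fold, 466 rose and 1278 fell. The 4 HFD libraries lay above all 4 Chow libraries for 25.8% of genes and below all 4 for 20.5%. The median difference over all genes was -0.01. On the first principal component, which held 66.6% of the variance, the HFD libraries lay between 31.9 and 45.5 and the Chow libraries between -42.2 and -25.9. Chow replicate 3, the library with little muscle RNA, lay nearest to HFD at -25.9, and the other Chow libraries lay between -42.2 and -39.4.

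**Figure D1:**
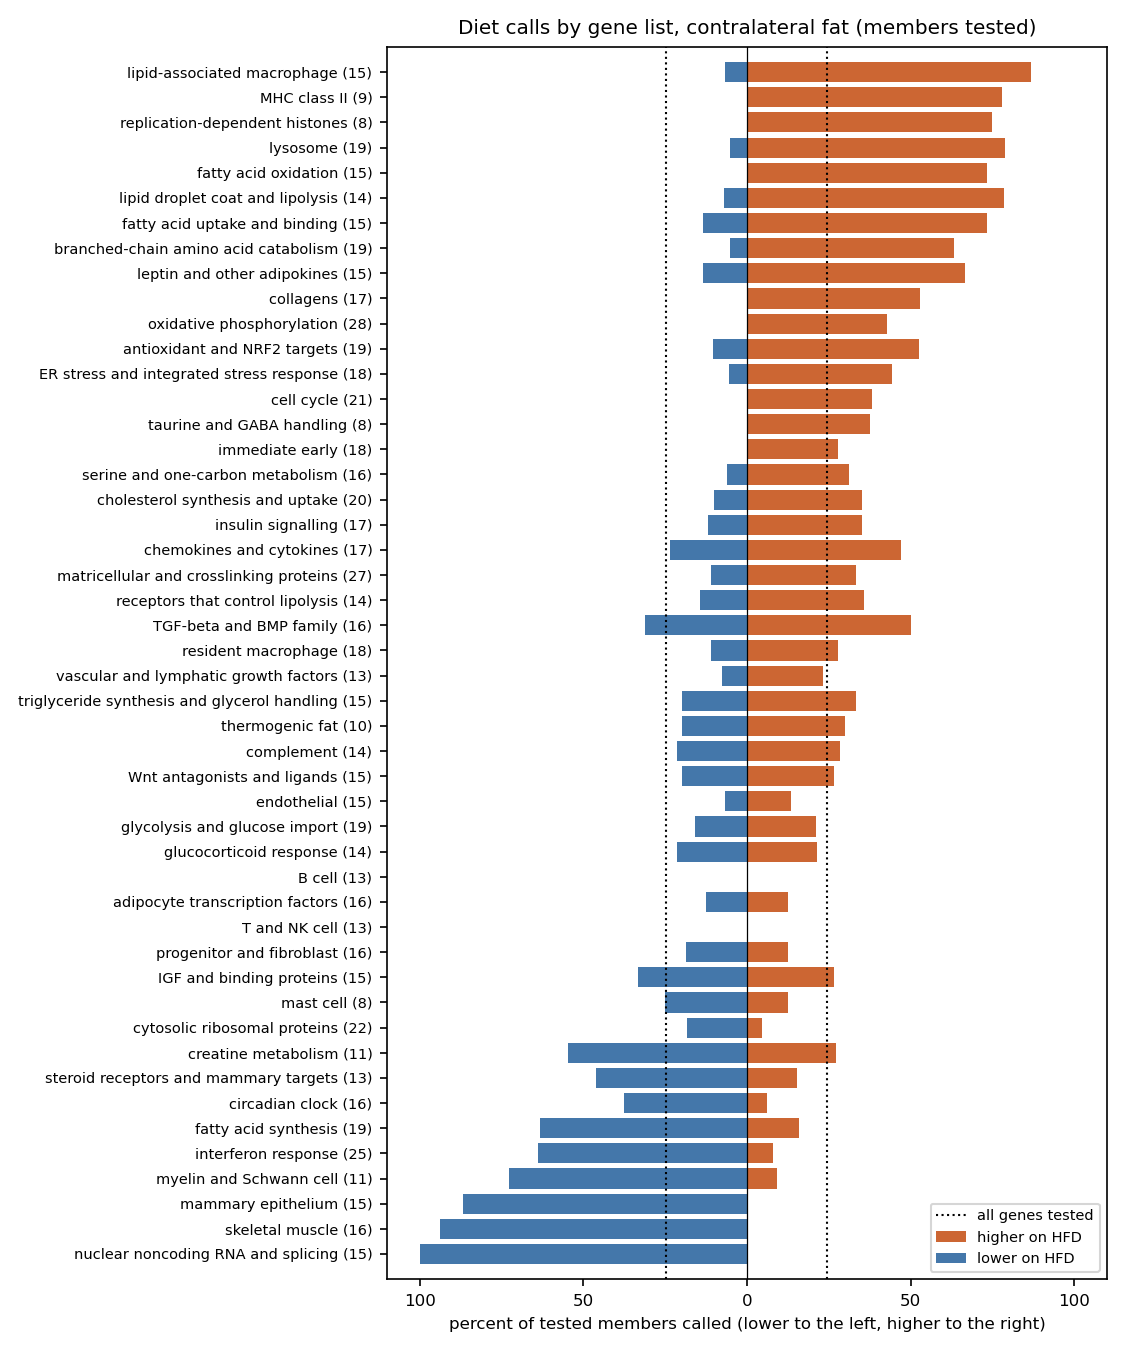
Percent of tested members of each gene list with 8 or more tested called higher (right, orange) or lower (left, blue) on HFD in contralateral fat, with the number tested in brackets and dotted lines at the shares for all genes tested. Lipid-associated macrophage, lysosomal, lipid droplet and fatty acid uptake genes lie far right, and muscle, nuclear RNA and mammary epithelial genes far left.

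The genes with the lowest adjusted p among those that changed over 2-fold came from several cell types. Cavin3, which encodes a coat protein of caveolae (the flask-shaped pits of the adipocyte membrane), rose by 1.71 ± 0.08 (209.7 ± 19.7 against 62.2 ± 4.9 CPM, adjusted p = 3.32e-07). Cilp, a cartilage-type matrix protein gene, rose by 2.06 ± 0.10 and Olfm1, which encodes a secreted olfactomedin, by 1.49 ± 0.08. Psat1, an enzyme of serine synthesis, rose by 1.3 ± 0.07, and Oxct1, which activates ketone bodies for oxidation, by 1.1 ± 0.05. Among those that fell were Aqp5, a water channel of glandular epithelium, by 2.37 ± 0.11 (10.6 ± 1.3 against 53.4 ± 6.43 CPM, adjusted p = 2.63e-07), the cationic amino acid transporter gene Slc7a2 by 1.85 ± 0.09 (54.7 ± 7.64 against 193 ± 11.8 CPM), and Ptn, a heparin-binding growth factor gene, by 2.07 ± 0.11. Kcna1, a potassium channel gene of nerve, fell by 2.39 ± 0.13, from 27.8, 28.7, 24.8 and 23.3 CPM in the Chow libraries to 6.07, 4.7, 5.72 and 3.86 CPM in the HFD libraries. Each of these genes separated the 4 libraries of one diet from the 4 of the other, as the rule for naming them required.

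Leptin and most other hormones of the fat cell were higher on HFD. Lep, the satiety hormone gene, stood at 202, 208, 372 and 213 CPM on Chow and 1735, 2142, 2186 and 3201 CPM on HFD, a rise of 3.18 ± 0.27 (adjusted p = 4.17e-05). The lowest HFD library was thus several times the highest Chow library. Of 15 adipokine genes tested of 17 listed, 10 rose, 2 fell and 3 did not pass (median 0.93). Sfrp5, a secreted Wnt antagonist made by adipocytes, rose by 4.63 ± 0.38, at 244, 333, 392 and 514 CPM on HFD against 11, 13.5, 24 and 9.84 CPM on Chow. Angptl4, an inhibitor of lipoprotein lipase, rose by 1.09 ± 0.09 (459.8 ± 49.3 against 210.4 ± 18.1 CPM), and Apln, the apelin gene, by 1.54 ± 0.21. Nnat, an imprinted proteolipid gene of adipocytes, rose by 0.93 ± 0.15 and the retinol carrier Rbp4 by 0.36 ± 0.07. Fgf21 was called higher at levels of 1.03 against 0.175 CPM, close to the filter. Adipsin, Cfd, a protease of the complement pathway made by fat cells, fell by 0.69 ± 0.20 to 3183 ± 789.9 against 4996 ± 948 CPM, and the thermogenic-fat peptide gene Nrg4 fell by 0.59 ± 0.08. Resistin, Retn, gave 0.02 ± 0.12 (adjusted p = 0.901), and its groups overlapped. With the muscle covariate 4 of the list were called higher and 1 lower. In fits without single libraries, edgeR's adjusted p went above 0.05 for Cfd without Chow replicate 2 (0.0541).

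The enzymes that build fatty acids from glucose carbon fell. The stearoyl-CoA desaturase genes Scd1 and Scd2 were called higher, a call lost in 8 and 13 of 19 alternatives. Of 19 genes tested of 20 listed, 3 rose, 12 fell and 4 did not pass (median -0.64), and 8 fell with the muscle covariate. Fasn (ENSMUSG00000025153; mm10, chromosome 11, 120805940 to 120824178, minus strand), the fatty acid synthase gene, stood at 5987, 6379.8, 4637 and 6442 CPM in Chow replicates 1 to 4 and at 1079, 1544, 594 and 669.9 CPM in HFD replicates 1 to 4. No HFD library reached the lowest Chow library, and the difference was -2.63 ± 0.31 (adjusted p = 2.48e-04). Chow replicate 3, with the least muscle RNA of its group, had the lowest Fasn of the Chow libraries. Elovl6, which lengthens the product of that enzyme, fell by 2.76 ± 0.23 (23.8 ± 7.69 against 157 ± 22 CPM), and Acaca, which makes malonyl-CoA for it, by 2.33 ± 0.20 (102 ± 29.9 against 498 ± 48.3 CPM). Acss2, which makes acetyl-CoA from acetate, fell by 1.46 ± 0.16, Me1, which supplies NADPH, by 0.71 ± 0.15, and Slc25a1, the mitochondrial citrate exporter, by 0.64 ± 0.14. Acacb, whose malonyl-CoA restrains fatty acid entry into mitochondria, fell by 1.57 ± 0.10. Their regulators fell as well: Mlxipl (ChREBP) fell by 1.09 ± 0.10, Srebf1 by 0.52 ± 0.09 and Thrsp, a lipogenic coactivator, by 1.18 ± 0.30. In the other direction, Scd1, which desaturates stearate to oleate, rose by 0.51 ± 0.16 (21428 ± 4998 against 14689 ± 1339 CPM, adjusted p = 0.024, 0.38 at adjusted p = 0.473 with the muscle covariate). Its groups overlapped, at 14217, 15644, 15885 and 13010.3 CPM on Chow and 26173, 22380.4, 22781 and 14379 CPM on HFD. Scd2 rose by 0.54 ± 0.19 and Elovl5, an elongase of polyunsaturated fatty acids, by 0.23 ± 0.07, and neither Fads1 (0.01 ± 0.08) nor Fads2 (-0.49 ± 0.26) passed. When 1 library was omitted at a time, edgeR's adjusted p went above 0.05 for Scd1 without Chow replicate 1 or 4 or HFD replicate 1, 2 or 3 (up to 0.0743) and Scd2 without Chow replicate 1, 3 or 4 or HFD replicate 1, 2 or 4 (up to 0.137), and went under 0.05 for Fads2 without HFD replicate 2 (7.80e-04, at -0.83).

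The letters CCAAT, the binding sequence of NF-Y, a factor that works beside SREBP at many lipid gene promoters, were looked for on both strands in the 250 bases before RefSeq gene starts (GRCm38.p6). They were present in 11 of 17 fatty acid synthesis genes that had an entry, 8 of them called lower and 1 higher. The share was 37.5% of all 27025 genes with an entry and 39.5% of those tested between diets. Listed genes without these letters were called lower as well, among them Acaca and Elovl6, while others did not pass. The last 120 bases before the Fasn start are printed because Fasn is the central enzyme of the group, with every match in capitals, one pair of matches on opposite strands sharing letters. A match is a description of the sequence and not evidence of binding.
Fasn chr11:120824548-120824667 (minus strand): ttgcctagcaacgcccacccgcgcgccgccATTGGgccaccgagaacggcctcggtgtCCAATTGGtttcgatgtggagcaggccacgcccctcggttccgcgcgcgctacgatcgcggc

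More cholesterol synthesis genes rose than fell. Of 20 tested, 7 rose, 2 fell and 11 did not pass (median 0.16), against backgrounds of 24.5% and 24.8%. Insig1, which holds SREBP in the endoplasmic reticulum, rose by 1.13 ± 0.14 (86.4 ± 18 against 38.3 ± 1.81 CPM), and Sc5d, a late-step desaturase, by 1.15 ± 0.07. Sqle fell by 0.32 ± 0.11 and Srebf2, the regulator of the pathway, by 0.25 ± 0.07, both small and with overlapping groups. With single libraries left out, edgeR's adjusted p went above 0.05 for Sqle without Chow replicate 1, 2 or 3 or HFD replicate 1, 3 or 4 (up to 0.138) and Srebf2 without Chow replicate 2 (0.0541).

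Genes for taking up fatty acids from blood, and the caveolae they pass through, were higher. Of 15 tested of 16 listed, 11 rose, 2 fell and 2 did not pass (median 0.82), and 7 rose with the muscle covariate. Lpl, the lipase that frees fatty acids from lipoproteins, rose by 0.53 ± 0.11 (0.31 at adjusted p = 0.317 with the muscle covariate), at 4547, 4416, 3898 and 4982 CPM on HFD against 2643, 3148, 3403 and 2863 CPM on Chow. Cd36, the membrane carrier of fatty acids, rose by 0.89 ± 0.11 (3478 ± 515 against 1827 ± 133 CPM). Cav1, the main caveolin, rose by 1.1 ± 0.09 (1909 ± 134 against 866 ± 70.3 CPM), and the cavins Cavin1 and Cavin2 rose by 1.28 ± 0.10 and 1.07 ± 0.08. For Lpl, Cd36, Cav1 and Cavin1 the HFD libraries all lay above the Chow libraries. Angptl8, an insulin-induced regulator of Lpl, fell by 1.1 ± 0.21 (2.69 ± 0.651 against 5.62 ± 1.18 CPM). The acyl-CoA ligase transporter gene Slc27a1 gave -0.15 ± 0.08 and did not pass.

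**Figure D2:**
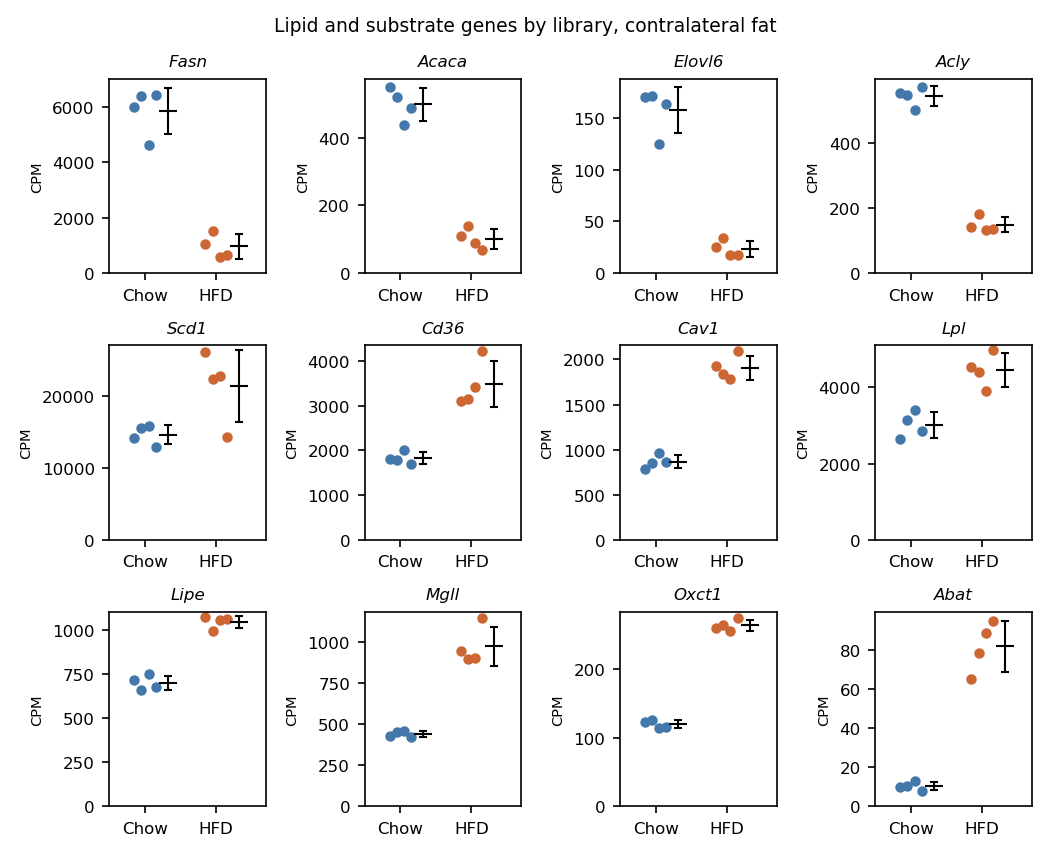
CPM of 12 genes in the 4 Chow (blue) and 4 HFD (orange) contralateral libraries, each axis starting at 0, with the mean and SD as a black bar at the right of each group. Fasn, Acaca, Elovl6 and Acly lie lower on HFD without overlap, Scd1 overlaps, and the uptake, lipolysis and substrate genes lie higher.

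Lipid droplet and lipolysis genes rose together. Of 14 tested, 11 rose, 1 fell and 2 did not pass (median 0.54), and 2 rose with the muscle covariate. Mgll, which completes the breakdown of triglyceride, rose by 1.11 ± 0.09 (976 ± 118 against 441 ± 17 CPM, adjusted p = 3.81e-06), Lipe, hormone-sensitive lipase, by 0.54 ± 0.07 (1045 ± 35.8 against 701 ± 40.9 CPM) and Pnpla2, the lipase of the first step, by 0.4 ± 0.07 (1151 against 849 CPM). Hilpda, a hypoxia-induced inhibitor of Pnpla2, rose by 1.32 ± 0.19 (7.45 ± 1.55 against 2.89 ± 0.599 CPM) and the droplet coat gene Plin3 by 0.54 ± 0.05. Neither Abhd5, the activator of Pnpla2 (0.03 ± 0.06), nor G0s2, an inhibitor (0.5 ± 0.18), passed. Cidea, a droplet protein abundant in brown fat, was the member that fell, by 0.98 ± 0.28. Triglyceride synthesis was mixed, with 5 of 15 members higher and 3 lower (median 0.04). Gpam, the first acyltransferase, fell by 0.94 ± 0.13 and Dgat1 by 0.66 ± 0.08, whereas Dgat2, the other enzyme of the last step, rose by 0.72 ± 0.11 (623 ± 80.1 against 368 ± 39.2 CPM). Aqp7, which lets glycerol out of the adipocyte, rose by 0.94 ± 0.15, and Pck1, which supplies glycerol phosphate, gave -0.09 ± 0.13. In fits without single libraries, edgeR's adjusted p went under 0.05 for G0s2 without Chow replicate 3 (2.09e-04, at 0.72). DESeq2 and limma voom called G0s2 higher (adjusted p = 0.00746 and 0.0228), and so did edgeR with all 24 libraries in 1 fit (0.0123).

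Among receptors that set the rate of lipolysis, the 5 that rose restrain it or clear a signal that promotes it, and other restraining receptors did not rise. Of 14 tested of 15 listed, 5 rose, 2 fell and 7 did not pass (median -0.10). Npr3, which clears natriuretic peptides, was the most abundant of the list on HFD at 290.2 CPM per kilobase of exon. It stood at 245, 371, 438 and 292 CPM on Chow and 1899.8, 1898, 2032 and 2210.3 CPM on HFD. Sucnr1, the succinate receptor, rose by 1.89 ± 0.11 (64.6 ± 7.13 against 16.9 ± 2.39 CPM), Ptger3, the prostaglandin E receptor EP3, by 1.75 ± 0.15 (65.2 ± 10.1 against 19 ± 3.52 CPM), Ffar2, a receptor of short-chain fatty acids, by 1.2 ± 0.08 (42.5 ± 2.38 against 18.1 ± 2.09 CPM), and Adora1, the adenosine A1 receptor, by 0.85 ± 0.15 (88.7 ± 13.7 against 47.9 ± 9.33 CPM). These receptors couple to the inhibitory G protein in adipocytes, apart from Npr3. Npr1, the natriuretic peptide receptor that promotes lipolysis, fell by 0.34 ± 0.08 with overlapping groups, and so did the inhibitory Adra2a (-0.56 ± 0.21) at 1.57 against 2.26 CPM. Of the stimulatory beta adrenergic receptors, Adrb3 gave -0.54 ± 0.35 (adjusted p = 0.24), at 165, 153, 177 and 163 CPM on Chow and 165, 156, 91.6 and 52.5 CPM on HFD, and Adrb1 (-0.23 ± 0.15) did not pass. The lactate receptor Hcar1 (-0.3 ± 0.21) and the niacin and ketone receptor Hcar2 (-0.28 ± 0.13) did not pass. When 1 library was omitted at a time, edgeR's adjusted p went above 0.05 for Adra2a without Chow replicate 2, 3 or 4 or HFD replicate 2, 3 or 4 (up to 0.125), and went under 0.05 for Hcar2 without HFD replicate 1 (0.0364, at -0.37).

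Mitochondrial enzymes that burn fatty acids and branched-chain amino acids were higher by smaller amounts. Of 15 fatty acid oxidation genes, 11 rose, 0 fell and 4 did not pass (median 0.33). Acaa2, the last enzyme of the cycle, rose by 0.75 ± 0.06, Hadh by 0.69 ± 0.05 and Etfa, which passes their electrons on, by 0.71 ± 0.07, whereas the trifunctional protein gene Hadha gave -0.03 ± 0.06. Of 19 branched-chain amino acid genes, 12 rose, 1 fell and 6 did not pass (median 0.25). The 2 transaminases that open the pathway went opposite ways: cytosolic Bcat1 rose by 2.12 ± 0.21 (27 ± 7.72 against 6.04 ± 0.856 CPM) and mitochondrial Bcat2 fell by 0.42 ± 0.09 (34.6 ± 2.61 against 45 ± 5.41 CPM). Oxct1 stood at 124, 126, 115 and 116 CPM on Chow and 260.2, 265, 257 and 276 CPM on HFD. Nuclear genes of the respiratory chain rose in 12 of 28 cases and fell in 0 (median 0.15), with Ndufb3, a complex I subunit gene, at 0.6 ± 0.06. With the muscle covariate the rises numbered 5, 6 and 3 for oxidation, amino acids and respiratory chain. None of the 7 mitochondrial genome transcripts tested was called by edgeR (median -0.08, mt-Co1 -0.09 ± 0.10), the number lower at an unadjusted p under 0.05 was 1, and DESeq2 and limma voom each called 1 lower.

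Glucose use showed fewer calls, and insulin signalling genes rose more often than they fell. Of 19 glycolysis genes, 4 rose, 3 fell and 12 did not pass, shares below or near the background. Tpi1 rose by 0.69 ± 0.08 and Pdk4, which shuts pyruvate out of the mitochondrion, by 1.27 ± 0.29 (182 ± 73.3 against 73.7 ± 8.71 CPM), while Aldoc fell by 0.81 ± 0.19. Gapdh, called lower, was counted at only 1.97 against 2.97 CPM, and reads from its many copies in the genome may not have been assigned, so its value is uncertain. Of 17 insulin signalling genes, 6 rose (35.3%), 2 fell (11.8%) and 9 did not pass. Grb14, an inhibitor of the insulin receptor kinase, rose by 2.24 ± 0.14 (39.1 ± 5.94 against 8.09 ± 1.42 CPM, adjusted p = 1.53e-06), and Trib3, an inhibitor of Akt, rose by 1.07 ± 0.15. Irs1, which passes the signal on, fell by 0.92 ± 0.20 (-0.69 at adjusted p = 0.258 with the muscle covariate), at 133, 168, 104 and 92.5 CPM on HFD against 279.9, 241, 208 and 186 CPM on Chow, whereas the adipocyte-type substrate gene Irs3 rose by 0.75 ± 0.09. The receptor itself, Insr, gave -0.11 ± 0.06 (adjusted p = 0.104). Of 16 adipocyte transcription factor genes, 2 rose and 2 fell, with Ppargc1b, a coactivator of mitochondrial and lipogenic genes, at -0.85 ± 0.11 and Cebpa, which did not pass, at 0.19 ± 0.11. Of 10 thermogenic fat genes, 3 rose and 2 fell: Otop1, a proton channel gene, rose by 1.98 ± 0.39, and Ppargc1a, the coactivator of mitochondrial biogenesis, gave -0.31 ± 0.17. Without Chow replicate 4, 4 thermogenic genes fell. The same omission left 4 of the transcription factor genes lower. With single libraries left out, edgeR's adjusted p went above 0.05 for Gapdh without Chow replicate 2, 3 or 4 or HFD replicate 2 or 3 (up to 0.0919), and went under 0.05 for Cebpa without HFD replicate 4 (0.00431, at 0.29) and Ppargc1a without Chow replicate 4 (0.0294, at -0.45).

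Growth factors, their secreted inhibitors and markers of fat expansion held some of the largest rises. Mest, an imprinted gene used as a marker of expanding fat, stood at 8.54, 16, 46.7 and 6.9 CPM on Chow and 466, 745, 504 and 1170.1 CPM on HFD, a rise of 5.17 ± 0.77 (adjusted p = 0.00196, 3.53 at adjusted p = 0.057 with the muscle covariate). Chow replicates themselves ranged several-fold in Mest, and all stayed below the HFD libraries. Of 15 Wnt genes, 4 rose, 3 fell and 8 did not pass, near the background. Wnt4, a ligand of the mammary epithelium downstream of progesterone, fell by 1.08 ± 0.17, and Wnt5a rose by 0.4 ± 0.10. In the TGF-beta and BMP family, 8 rose, 5 fell and 3 did not pass of 16. Besides Bmp3 (214 ± 21.7 against 24.4 ± 6.16 CPM), the activin inhibitor gene Fstl3 rose by 1.8 ± 0.28 and the BMP antagonist gene Chrdl1 by 1.53 ± 0.16 (324 ± 69.9 against 109 ± 16.2 CPM), whereas Tgfb2 fell by 1.07 ± 0.16 and follistatin, Fst, by 0.97 ± 0.15. Among the insulin-like growth factors, Igf1 rose by 0.56 ± 0.09 and its receptor gene Igf1r fell by 0.54 ± 0.08. Igfbp3 rose by 1.88 ± 0.33 (163 ± 70.04 against 43 ± 3.73 CPM) and Igfbp2 by 1.94 ± 0.21, and Pappa, a protease that cuts binding proteins, fell by 1.4 ± 0.17 (3.26 ± 0.75 against 8.32 ± 1.16 CPM). Of this list 4 rose and 5 fell of 15, and 3 fell without Chow replicate 2.

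In small-molecule metabolism, Abat, the GABA transaminase gene, rose by 2.96 ± 0.16, at 65.3, 78.6, 88.5 and 95 CPM on HFD against 9.76, 10.2, 13 and 8.05 CPM on Chow. Slc6a13, which imports GABA and taurine, rose by 2.26 ± 0.21 and Aldh5a1, the next enzyme after Abat, by 0.3 ± 0.08. The taurine synthesis gene Cdo1 gave -0.17 ± 0.13 and did not pass. Serine synthesis rose at its first 2 steps, Phgdh by 0.99 ± 0.10 (33.1 ± 4.53 against 16.2 ± 1.4 CPM) and Psat1, at 96.6, 93.1, 82.3 and 101 CPM on HFD against 36.4, 37, 38.4 and 35.9 CPM on Chow. Nnmt, which methylates nicotinamide, rose by 0.85 ± 0.07, and the cytosolic enzyme gene Shmt1 fell by 0.48 ± 0.12. Of 16 serine and one-carbon genes, 5 rose, 1 fell and 10 did not pass, and 3 rose without HFD replicate 1.

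Basement membrane collagens and several matrix-binding genes rose, and the main fibrillar collagens did not pass. Of 17 collagen genes, 9 rose, 0 fell and 8 did not pass (median 0.30), and 4 rose with the muscle covariate. Col18a1, Col4a2 and Col4a1, collagens of basement membranes, rose by 1.01 ± 0.08, 0.99 ± 0.10 and 0.77 ± 0.10 (1963 ± 202 against 1120.0 ± 118 CPM for Col4a1). The fibrillar collagen genes Col1a2 (0.01 ± 0.14) and Col3a1 (0.17 ± 0.18) did not pass. Among 27 matricellular and crosslinking genes, 9 rose, 3 fell and 15 did not pass, with 5 falling without Chow replicate 4. Sparc, a collagen-binding protein of fat, rose by 1.74 ± 0.15, at 3446, 3999, 3348 and 5267 CPM on HFD against 1175, 1213, 1308 and 976 CPM on Chow. Lox, which crosslinks collagen, rose by 1.5 ± 0.21 (219.9 ± 57.5 against 75.6 ± 14.1 CPM) and thrombospondin 1, Thbs1, by 1.46 ± 0.23 (564 ± 86 against 199.7 ± 59.3 CPM), while Ccn2 fell by 0.5 ± 0.12. Fibroblast and progenitor markers showed little: 2 rose and 3 fell of 16, with Pdgfra, the progenitor receptor gene, at -0.16 ± 0.11 (adjusted p = 0.222), and 5 fell without Chow replicate 4.

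Macrophage genes linked to lipid were higher, and those of resident macrophages mostly did not pass. Of 15 lipid-associated macrophage genes, 13 rose, 1 fell and 1 did not pass (median 0.95), with 2 higher under the muscle covariate and 7 without Chow replicates 2 and 4 together. Mmp12, macrophage elastase, stood at 0.881, 1.45, 1.29 and 1.47 CPM on Chow and 13, 33.6, 13.2 and 75.3 CPM on HFD, and Trem2, the lipid receptor that gives the state its name, at 2.1, 1.64, 1.7 and 1.47 and 2.67, 6.37, 4.12 and 13.6 CPM. Every HFD library exceeded every Chow library for both, with differences of 4.69 ± 0.87 (4.76 at adjusted p = 0.189 with the muscle covariate) and 1.9 ± 0.51 (1.99 at adjusted p = 0.279 with the muscle covariate), and HFD replicate 4 was the highest for each. Spp1, osteopontin, gave 1.1 ± 0.67 and did not pass (adjusted p = 0.203). Lpl, Apoe and others of this list are expressed by adipocytes too. Of 18 resident macrophage genes, 5 rose, 2 fell and 11 did not pass, with Cd68 at 0.72 ± 0.16, Mrc1 at 0.14 ± 0.10 and the scavenger receptor gene Cd209f at -0.51 ± 0.17. With Chow replicate 1 left out 3 rose, and as many with HFD replicate 3 or HFD replicate 4 left out. In fits without single libraries, edgeR's adjusted p went above 0.05 for Trem2 without Chow replicate 4 (0.0508) and Cd209f without Chow replicate 2 or 3 or HFD replicate 1, 2 or 4 (up to 0.102).

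More chemokine genes rose than fell. Of 17 tested of 23 listed, 8 rose, 4 fell and 5 did not pass (median 0.47), and 1 rose with the muscle covariate. Ccl2, which draws monocytes, rose by 1.58 ± 0.28 (0.84 at adjusted p = 0.238 with the muscle covariate; 1.9, 1.45, 3.06 and 1.53 CPM on Chow and 5.88, 6.93, 3.88 and 8.04 CPM on HFD), and Ccl11, which draws eosinophils, by 1.15 ± 0.10 (146 ± 13.9 against 63.9 ± 9.6 CPM). Il1rn, the interleukin 1 receptor antagonist gene, rose by 2.36 ± 0.40. Cxcl13, which draws B cells, fell by 2.22 ± 0.58, from 3.79, 10.4, 5.11 and 17 CPM on Chow to 2.24, 0.989, 3.32 and 1.43 CPM on HFD, and was highest in Chow replicate 4, the library with the most lymph node stroma RNA. Cxcl12 fell by 0.5 ± 0.07. Antigen presentation by MHC class II was higher in 7 of 9 genes with 0 lower (median 0.38). H2-DMb1, which loads peptides, rose by 0.78 ± 0.12 and Cd74, the invariant chain, by 0.38 ± 0.08, and 0 of the list passed with the muscle covariate. Of 5 neutrophil genes tested of 11 listed, 2 rose, 1 fell and 2 did not pass. The alarmin genes S100a8 and S100a9, abundant in neutrophils, rose by 3.85 ± 0.54 and 3.67 ± 0.64 at 5.95 against 0.384 CPM and 5.44 against 0.381 CPM, the gelatinase gene Mmp9 fell by 0.66 ± 0.14, and the neutrophil receptor gene Csf3r did not pass (0.29 ± 0.18). None of 13 T and NK cell genes (median -0.88) or 13 B cell genes (median -1.92) was called by edgeR, with 0 and 0 higher and 0 and 0 lower at an unadjusted p under 0.05. DESeq2 called 0 and 0 higher, and limma voom 0 and 1, with none lower. The summed B cell markers stood at 92.8, 155, 129.6 and 421 CPM in Chow replicates 1 to 4 and at 149 to 270.2 CPM on HFD, so Chow replicate 4 lay above all HFD libraries and its group overlapped them. Complement, which tags debris and cells, was mixed: 4 rose, 3 fell and 7 did not pass of 14. C3, its central component, fell by 0.97 ± 0.11 (938 ± 107 against 1785 ± 222 CPM), and Serping1, which inhibits the first steps, rose by 0.87 ± 0.09 (463 ± 44.6 against 247 ± 27.5 CPM). The count of complement genes higher was 2 without Chow replicate 1, Chow replicate 4 or HFD replicate 3 in turn. Of 8 mast cell genes tested of 9 listed, 1 rose, 2 fell and 5 did not pass, and 0 and 1 were called higher and lower with the muscle covariate. Kit, a mast cell and progenitor receptor gene, fell by 0.69 ± 0.06, and Hdc, which makes histamine, by 0.64 ± 0.13. The tryptase gene Tpsab1 rose by 1.28 ± 0.41 at 1.86 against 0.712 CPM, and the mast cell protease genes Mcpt4 (-0.1 ± 0.14) and Cpa3 (-0.13 ± 0.10) did not pass. When 1 library was omitted at a time, edgeR's adjusted p went above 0.05 for Cxcl13 without HFD replicate 4 (0.0556) and Tpsab1 without Chow replicate 4 or HFD replicate 2 (up to 0.0601).

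Lysosomal genes rose as a group. Of 19 tested, 15 rose, 1 fell and 3 did not pass (median 0.43), and 6 rose with the muscle covariate. Npc2, which moves cholesterol out of lysosomes, rose by 0.87 ± 0.10 (319.7 ± 45.5 against 169.8 ± 17 CPM), the protease gene Ctsz by 0.78 ± 0.09 and Gusb, a glycosidase, by 0.71 ± 0.08. Npc1, the partner of Npc2, fell by 0.23 ± 0.06 with overlapping groups. With single libraries left out, edgeR's adjusted p went above 0.05 for Npc1 without Chow replicate 2 (0.0608). Ctsd, cathepsin D, rose by 0.77 ± 0.16 (1100.1 ± 298 against 627 ± 35.7 CPM) and Lamp1, a membrane protein of lysosomes, by 0.42 ± 0.07 (474 ± 32.2 against 346 ± 20.3 CPM). TFEB and related factors are known to bind E-boxes at lysosomal genes, so the palindrome CACGTG was looked for in the 250 bases before the start. It was present in 7 of 14 lysosomal genes with an entry, 6 of them called higher. The share was 6.86% of all genes with an entry and 9.52% of those tested between diets. Listed genes without it were called higher as well, among them Npc2, Ctsz and Gusb, while others did not pass. Whether the letters go with the calls was not tested. Stretches of 120 bases before the Lamp1 start and around the Ctsd match nearest its start are shown as examples from the group, with CACGTG in capitals, 4 times in Lamp1.
Lamp1 chr8:13159041-13159160 (plus strand): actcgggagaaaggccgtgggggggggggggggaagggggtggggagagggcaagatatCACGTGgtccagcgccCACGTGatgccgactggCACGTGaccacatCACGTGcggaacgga
Ctsd chr7:142387863-142387982 (minus strand): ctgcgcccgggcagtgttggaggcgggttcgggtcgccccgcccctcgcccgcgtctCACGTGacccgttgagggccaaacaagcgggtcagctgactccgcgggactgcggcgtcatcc

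Most genes of the interferon response list fell, while 2 guanylate-binding protein genes rose. Of 25 tested, 2 rose, 16 fell and 7 did not pass (median -0.45), and 8 fell with the muscle covariate. Mx1, an antiviral GTPase gene, fell by 1.21 ± 0.17, from 8, 13.4, 13.5 and 10.4 CPM on Chow to 4.79, 4.14, 5.48 and 5.61 CPM on HFD. Zbp1, a nucleic acid sensor, fell by 0.95 ± 0.11 and Oasl2 by 0.78 ± 0.11, both without overlap between groups. Cxcl10, a chemokine induced by interferon, fell by 1.32 ± 0.25 (2.32 ± 0.933 against 5.67 ± 0.377 CPM). Gbp2 rose by 0.56 ± 0.08 (88.6 ± 5.01 against 58.7 ± 7.07 CPM) and Gbp7 by 0.35 ± 0.11, while Gbp3 (0.22 ± 0.12) and Irf9 (-0.09 ± 0.12) did not pass. The interferon-stimulated response element was searched as GAAANNGAAA on both strands of the same 250-base windows. It was present in 12 of 18 genes of the list with an entry, against 3.46% of all genes and 3.31% of those tested between diets. Of the 12, 6 were called lower and 2 higher, so the letters occurred before genes of both directions. Oasl2, without the letters, was called lower too, and Irf9, also without them, did not pass. In fits without single libraries, edgeR's adjusted p went above 0.05 for Isg15 without Chow replicate 2 or 3 or HFD replicate 1 or 3 (up to 0.127) and Gbp7 without Chow replicate 4 or HFD replicate 1, 3 or 4 (up to 0.0587), and went under 0.05 for Gbp3 without Chow replicate 2 (0.018, at 0.36). Isg15 (-0.57 ± 0.20) and Irgm1 (-0.33 ± 0.09) are shown for genes that fell and Gbp2 for one that rose, with the matches in capitals and those of Isg15 and Irgm1 overlapping each other.
Isg15 chr4:156200820-156200939 (minus strand): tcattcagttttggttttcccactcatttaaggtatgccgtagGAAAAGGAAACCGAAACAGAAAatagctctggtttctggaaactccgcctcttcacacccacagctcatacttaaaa
Irgm1 chr11:48871421-48871540 (minus strand): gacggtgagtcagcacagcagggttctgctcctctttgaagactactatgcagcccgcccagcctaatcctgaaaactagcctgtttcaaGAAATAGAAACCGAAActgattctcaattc
Gbp2 chr3:142620543-142620662 (plus strand): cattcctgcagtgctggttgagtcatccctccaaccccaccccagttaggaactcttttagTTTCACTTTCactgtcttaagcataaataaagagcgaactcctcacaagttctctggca

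Mammary epithelial genes and the hormone targets of that epithelium fell. Of 15 epithelial genes tested of 19 listed, 0 rose, 13 fell and 2 did not pass (median -0.98), and 8 fell with the muscle covariate. The summed level of the list was 421 to 552 CPM on HFD and 902 to 1014 CPM on Chow (two-sided exact permutation p = 0.0286, the smallest that 4 against 4 libraries can give, and 0.075 adjusted over the 21 library measures compared). Krt7, a luminal keratin, fell by 1.4 ± 0.09, Cdh1, the epithelial cadherin, by 1.08 ± 0.09 and the milk protein gene Csn3 by 1.81 ± 0.23 (15.9 ± 4.2 against 54.4 ± 12.6 CPM). Pgr (ENSMUSG00000031870; mm10, chromosome 9, 8900419 to 8965425, plus strand), the progesterone receptor gene, stood at 69, 64.3, 56.6 and 57.3 CPM on Chow and 9.89, 12.9, 11.6 and 13.5 CPM on HFD. Greb1, a target of the estrogen receptor, fell by 2.55 ± 0.18, from 16.7, 18.4, 14.7 and 13.2 CPM to 1.88, 3.28, 2.28 and 3.55 CPM. Prlr, the prolactin receptor gene, fell by 1.54 ± 0.15 (217 ± 45 against 613 ± 54.2 CPM), and Ly6d, a surface protein gene of epithelium, by 1.97 ± 0.34. For Pgr, Greb1 and Ly6d the fall was larger than the median of the epithelial list, a comparison that was not tested. Esr1, the estrogen receptor alpha gene, gave 0.1 ± 0.18 (adjusted p = 0.691) with overlapping groups, and Areg gave -1.53 ± 0.64 and did not pass. Nr3c2, the mineralocorticoid receptor gene, fell by 0.38 ± 0.08, and Hsd11b1, which activates glucocorticoid, rose by 0.42 ± 0.14. Of the 13 genes of this list tested of 17, 2 rose, 6 fell and 5 did not pass. When 1 library was omitted at a time, edgeR's adjusted p went above 0.05 for Hsd11b1 without Chow replicate 1 or 2 or HFD replicate 3 or 4 (up to 0.0916), and went under 0.05 for Esr1 without HFD replicate 4 (0.018, at 0.26) and Areg without HFD replicate 2 (0.0193, at -2.25). Areg was called lower by limma voom (adjusted p = 0.00852).

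**Figure D3:**
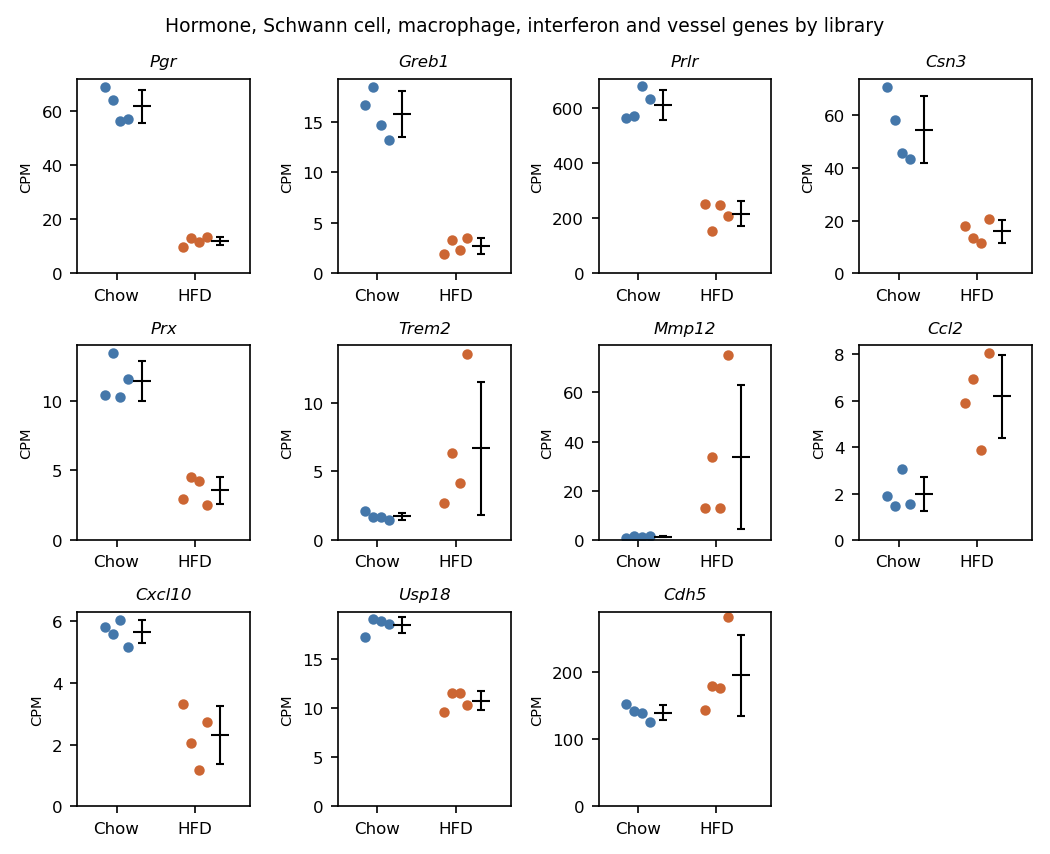
CPM of 11 genes of other cell types and signals in the 4 Chow (blue) and 4 HFD (orange) contralateral libraries, each axis starting at 0, with the mean and SD as a black bar. Pgr, Greb1, Prlr, Csn3 and Prx separate downward on HFD, Trem2, Mmp12 and Ccl2 upward, and Cdh5 overlaps.

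Genes of myelinating Schwann cells, which wrap peripheral nerves, were lower on HFD. Of 11 tested of 12 listed, 1 rose, 8 fell and 2 did not pass (median -1.15), with 5 lower under the muscle covariate. Prx, the gene of periaxin, a myelin sheath protein, stood at 10.4, 13.4, 10.3 and 11.6 CPM on Chow and 2.97, 4.51, 4.25 and 2.49 CPM on HFD (-1.72 ± 0.18, adjusted p = 2.07e-05). Pmp22, which fibroblasts also express, gave -0.06 ± 0.05, and S100b, also present in adipocytes, rose by 0.96 ± 0.20. Skeletal muscle genes were lower in 15 of 16 cases, 5 with limma voom and sample weights. Ttn, the largest sarcomere protein, stood at 2849, 2019, 44.6 and 1746 CPM in Chow replicates 1 to 4 and at 7.82, 4.88, 5.97 and 5.23 CPM on HFD, so the excess lay in Chow replicates 1, 2 and 4. The red blood cell list rose in 5 of 5 genes, with Hba-a1 at 1.02 ± 0.12 and Hbb-bs at 1.07 ± 0.13, though reads of these near-identical copies cannot be separated with certainty. Endothelial markers showed 2 higher and 1 lower of 15 (median 0.13). Cldn5, a junction protein of vessels, rose by 0.92 ± 0.23, Kdr, the main VEGF receptor, fell by 0.52 ± 0.11, and Cdh5 gave 0.44 ± 0.19 (adjusted p = 0.091) at 152, 142, 139 and 125 CPM on Chow and 143, 179, 176 and 281 CPM on HFD. The highest value came from HFD replicate 4. Leaving it out, 4 of the endothelial genes were called lower, and 4 were called higher with HFD replicate 1 left out. Prox1, the lymphatic transcription factor gene, fell by 1.29 ± 0.25 (1.45 against 3.43 CPM), with Lyve1 at -0.21 ± 0.18 not passing. Of 13 vascular and lymphatic growth factor genes and markers, 3 rose, 1 fell and 9 did not pass: Vegfb rose by 0.52 ± 0.07 and Vegfa gave -0.07 ± 0.14 (adjusted p = 0.687). With single libraries left out, edgeR's adjusted p went under 0.05 for Cdh5 without HFD replicate 1 (0.0262, at 0.57) and Lyve1 without HFD replicate 3 (0.00544, at -0.42). DESeq2 called Cdh5 higher (adjusted p = 0.0266), and so did edgeR with all 24 libraries in 1 fit (0.0152).

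Noncoding RNA was lower on HFD as a class. Of 1019 genes that GENCODE M21 annotates as long noncoding, 55% were called lower and 4.02% higher (median -0.74), against 22.5% and 26.7% of 13765 protein-coding genes (median 0.01). Of 29 genes lying within introns on the same strand, 27 were lower and 0 higher. In no-tumor fat the median of the long noncoding genes was -0.05 between the same diets. Malat1, a nuclear RNA retained at splicing speckles, fell by 1.04 ± 0.09, from 10572, 10699, 10975 and 11124 CPM on Chow to 5599, 5271, 5442 and 5436 CPM on HFD. The 2 groups lay far apart, with little spread within either. All 15 genes of the list of nuclear noncoding RNAs and splicing regulators fell (median -0.48), 10 of them with the muscle covariate, among them Luc7l3 by 0.85 ± 0.07, Rbm25 by 0.68 ± 0.05 and Clk4, a kinase of splicing factors, by 0.65 ± 0.05. The antisense RNAs Egfros and Airn were picked after their values were seen. Egfros, beside the Egfr gene, fell by 2.44 ± 0.14 (6.35 ± 0.72 against 33.7 ± 6.36 CPM), and Airn, at the imprinted Igf2r gene, fell by 1.35 ± 0.10 (9.59 ± 1.2 against 23.8 ± 1.07 CPM). No source used here gives the strand setting of the counts, so their reads cannot be told from those of the genes they overlap. Rbm4 and Rbm4b, adjacent and similar splicing regulator genes, fell by 1.43 ± 0.08 and 1.4 ± 0.06, and reads of such similar genes may not be separated with certainty.

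Transcript length moved with diet as well. When protein-coding genes were divided into 4 classes of equal size by exon bases, in the class with the fewest, 34.5% were called higher and 12.6% lower (median 0.16), and in the class with the most, 19.8% and 36.1% (median -0.12). In no-tumor fat the 2 medians were -0.02 and -0.004. The part of this trend, and of nuclear RNA, in the differences of the gene lists was not tested.

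**Figure D4:**
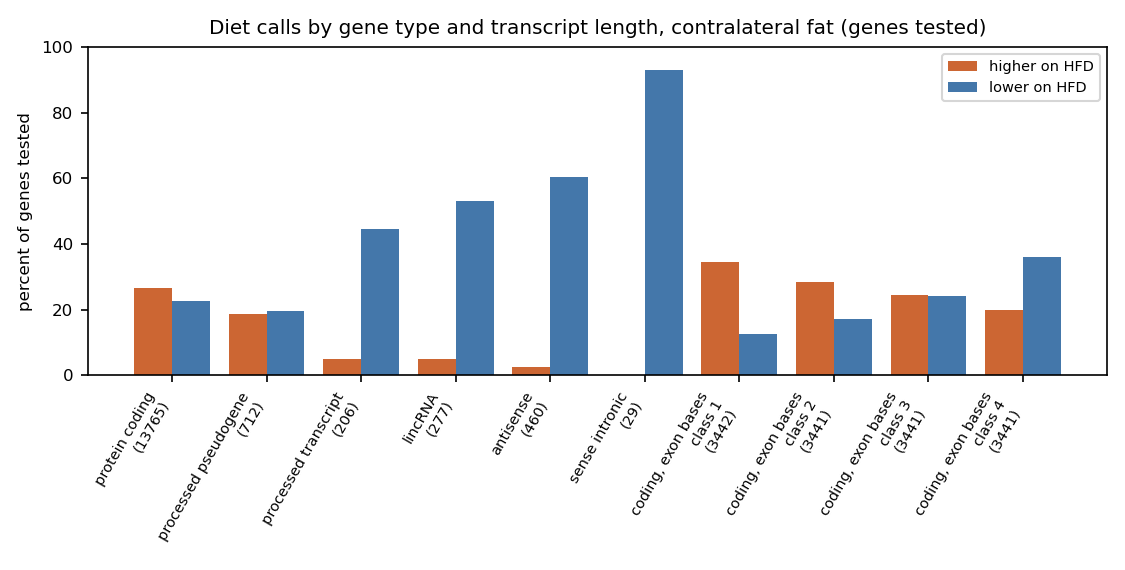
Percent of genes called higher (orange) or lower (blue) on HFD in contralateral fat by GENCODE M21 gene type, and for protein-coding genes by class of exon bases from 1 (fewest) to 4 (most), with the number tested in brackets. Noncoding types are mostly lower, and the balance of protein-coding genes turns from higher to lower as exon bases increase.

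Stress and cell division genes changed in part. Of 19 antioxidant genes, 10 rose, 2 fell and 7 did not pass (median 0.26). Sod3, the extracellular superoxide dismutase gene, rose by 2.34 ± 0.16, at 365, 436, 412 and 598 CPM on HFD against 75.9, 89.9, 103 and 78.9 CPM on Chow. Gpx3, the secreted glutathione peroxidase gene, fell by 1.2 ± 0.27 (384 ± 129.6 against 858 ± 183 CPM) while Gpx1, the cytosolic one, rose by 0.86 ± 0.08 (358 ± 22.4 against 192 ± 17.9 CPM), and Gclc, the rate-limiting enzyme of glutathione synthesis, fell by 1.07 ± 0.06. Endoplasmic reticulum and integrated stress genes rose in 8 of 18 cases (median 0.19), Hspa5, the main chaperone, by 0.31 ± 0.07. Xbp1, a regulator of that response, fell by 0.28 ± 0.07. Of 21 cell cycle genes 8 rose and 0 fell (median 0.62). Top2a, a replication topoisomerase gene, rose by 1.06 ± 0.33 (17.5 ± 7.51 against 8.13 ± 1.55 CPM) and Mki67 gave 0.63 ± 0.28 (edgeR adjusted p = 0.101). DESeq2 and limma voom called Mki67 higher (adjusted p = 0.0208 and 0.0408). The count of cell cycle genes called higher fell to 2 without Chow replicate 1, to 2 without HFD replicate 1 and to 2 without HFD replicate 2. It was 4 without Chow replicate 2, 4 without Chow replicate 3 and 5 without Chow replicate 4. In fits without single libraries, edgeR's adjusted p went above 0.05 for Top2a without Chow replicate 1, 2 or 3 or HFD replicate 1 or 2 (up to 0.0711). Histone genes of the replication-dependent clusters, whose transcripts lack a poly(A) tail, rose in 6 of 8 cases, Hist1h2bc by 1.13 ± 0.08 and Hist1h1e by 0.66 ± 0.08. Of 16 clock genes, 1 rose, 6 fell and 9 did not pass, with Bhlhe41, a repressor, at -0.96 ± 0.12, Nfil3 at -0.93 ± 0.20 and Per1 at -0.36 ± 0.06, and with 2 lower under the muscle covariate. No source used here gives the time of day of collection. Immediate early genes, which also respond to tissue handling, rose in 5 of 18 cases (27.8%), near the background of 24.5%. Fos gave 0.8 ± 0.20, a call lost in 3 of 19 alternatives, and Dusp1, at 0.04 ± 0.09, did not pass.

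The creatine pathway, which the series title names, was split. Arginine and glycine form the precursor of creatine through Gatm, and Gamt completes it. Of 11 genes tested of 12 listed, 3 rose, 6 fell and 2 did not pass, and 1 fell with the muscle covariate and 3 without Chow replicates 2 and 4 together. Gatm stood at 11.7, 12.5, 9.05 and 8.56 CPM in Chow replicates 1 to 4 and at 8.55, 8.84, 7.14 and 7.54 CPM in HFD replicates 1 to 4, with overlap (-0.41 ± 0.14, and -0.12 at adjusted p = 0.791 with the muscle covariate). Gamt stood at 3.79, 6.27, 4.49 and 5.43 CPM and 11.5, 10.3, 10.2 and 10.9 CPM without overlap. The arginases Arg2 and Arg1, which compete for arginine, fell by 1.2 ± 0.14 (5.68 ± 0.816 against 12.7 ± 1.84 CPM) and 1.02 ± 0.37 (1.5 ± 0.793 against 2.94 ± 0.935 CPM), and Odc1, which turns ornithine into polyamine, rose by 0.51 ± 0.11. Alpl, a phosphatase that acts on phosphocreatine in thermogenic fat, fell by 0.78 ± 0.13 (11.2 ± 1.53 against 18.5 ± 2.86 CPM), and the arginine importer gene Slc7a1 gave 0.06 ± 0.08. When 1 library was omitted at a time, edgeR's adjusted p went above 0.05 for Gatm without Chow replicate 1 or 2 or HFD replicate 3 or 4 (up to 0.107) and Arg1 without Chow replicate 2, 3 or 4 or HFD replicate 1, 2 or 3 (up to 0.112).

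The muscle covariate also lowered the counts of the lists that follow. Each entry sets the count called with the covariate against the count called without it. Whether the same members were called was not checked. Among metabolic lists, 3 of 7 cholesterol genes, 0 of 5 triglyceride synthesis genes, 1 of 4 glycolysis genes, 3 of 6 insulin signalling genes, 3 of 5 serine and one-carbon genes, 4 of 5 lipolysis receptors, 0 of 3 thermogenic fat genes and 0 of 2 adipocyte transcription factor genes were called higher. Among stress, growth and immune lists these were 1 of 8 endoplasmic reticulum stress genes, 1 of 8 cell cycle genes, 0 of 5 immediate early genes, 2 of 6 histone genes, 0 of 5 resident macrophage genes and 6 of 10 antioxidant genes. Among secreted and stromal lists they were 2 of 8 TGF-beta and BMP genes, 2 of 9 matricellular and crosslinking genes, 2 of 4 IGF system genes, 1 of 4 Wnt genes, 1 of 4 complement genes and 0 of 2 progenitor and fibroblast genes. For calls lower on HFD, the counts with and without the covariate were 4 against 6 steroid receptor and target genes, 0 against 5 TGF-beta and BMP genes and 1 against 5 IGF system genes. They were 1 against 4 ribosomal protein genes, 2 against 3 triglyceride synthesis genes and 0 against 3 glycolysis genes.

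The diet difference was next compared with that in no-tumor fat, which shared no library with it. There 3943 genes were called (24.9%). Of 15579 genes tested in both fats, 2540 were called in both, which was 33% of the contralateral calls and 65.1% of the no-tumor calls. 2431 of them had the same direction and 109 the opposite. The difference of the 2 diet effects was itself called for 1657 genes in the positive direction (9.94%) and 1657 in the negative (9.94%) of 16676, 19.9% in all, where positive means a higher value of HFD over Chow in contralateral than in no-tumor fat. The positive count was 1006 without Chow contralateral replicate 4, and 1071, 1061 and 1094 without HFD no-tumor replicates 1, 2 and 3 in turn. With all 24 libraries in 1 fit the counts were 625 positive and 931 negative. The counts of called differences by list, given below, were not recomputed under the alternatives. Total counts of the no-tumor libraries ran from 16123753 to 16641785 on Chow and 14979723 to 16533437 on HFD. Each Chow contralateral library had fewer counts than any of these. The skeletal muscle markers summed to 80.6 to 1401 CPM on Chow and 106 to 129 CPM on HFD in no-tumor fat. The muscle covariate was not run for the difference between fats. Mitochondrial ribosomal RNA took 29.6% to 34.8% of counts on Chow and 20.5% to 22% on HFD in no-tumor fat. In contralateral fat the shares were 23.1% to 26.4% and 22.8% to 24.8%. The part of these library differences in the called differences was not tested.

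Schwann cell, nuclear RNA and endothelial genes had more negative diet effects in contralateral fat. Prx was at -1.72 ± 0.18 in contralateral and 0.36 ± 0.18 in no-tumor fat, a difference of -2.08 ± 0.27 (adjusted p = 2.87e-04), and 7 of 11 genes of the Schwann cell list differed in that direction. Its Chow level was 11.4 ± 1.45 CPM in contralateral and 4.95 ± 1.26 CPM in no-tumor fat. Kcna1 differed by -2.06 ± 0.19, Rbm4b by -1.07 ± 0.09, the transcription elongation gene Ccnt2 by -0.66 ± 0.07 and Neat1, a nuclear RNA, by -1.53 ± 0.16. Of 15 nuclear RNA and splicing genes 12 differed, all negatively. Of 15 endothelial markers 12 differed negatively: the list median was 0.80 in no-tumor fat and 0.13 in contralateral fat. Cdh5 had the values 1.09 ± 0.06 and 0.44 ± 0.19, a difference of -0.64 ± 0.21 (adjusted p = 0.0437). This call of Cdh5 was lost in 14 of 24 alternatives, with an edgeR adjusted p of up to 0.103.

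Other lists had more positive diet effects in contralateral fat. Of 28 respiratory chain genes 14 differed positively and 0 negatively, with medians of -0.20 in no-tumor and 0.15 in contralateral fat. The counts were 12 positive and 1 negative of 22 ribosomal protein genes, 11 and 0 of 18 endoplasmic reticulum stress genes, 10 and 0 of 19 lysosomal genes and 8 and 0 of 18 resident macrophage genes. Among their members, the called differences of Hspa5 and Mrc1 were each lost in 13 of 24 alternatives, and those of Xbp1, Npc2 and Ctsz in 0. A positive difference can also come from a fall in no-tumor fat. There the medians of these lists were -0.31, -0.13, 0.16 and -0.54, against 0.07, 0.19, 0.43 and 0.09 in contralateral fat. Of the ribosomal protein genes, 0 rose and 16 fell in no-tumor fat, and 1 rose and 4 fell in contralateral fat. Tspo, a mitochondrial outer membrane protein gene, differed by 0.80 ± 0.09, Chp1, a calcium-binding cofactor gene, by 0.59 ± 0.08 and Mmp9 by 1.40 ± 0.18. Mmp9 fell in both fats, with -0.66 ± 0.14 in contralateral and -2.06 ± 0.10 in no-tumor fat. None of 19 fatty acid synthesis genes had a called difference with edgeR, 0 had an unadjusted p under 0.05, and Fasn gave -0.09 ± 0.77 (adjusted p = 0.948). The differences of Lep (0.42 ± 0.33, adjusted p = 0.392) and Pgr (-0.78 ± 0.37, adjusted p = 0.149) did not pass either, which does not show that the diet effects were alike.

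**Figure D5:**
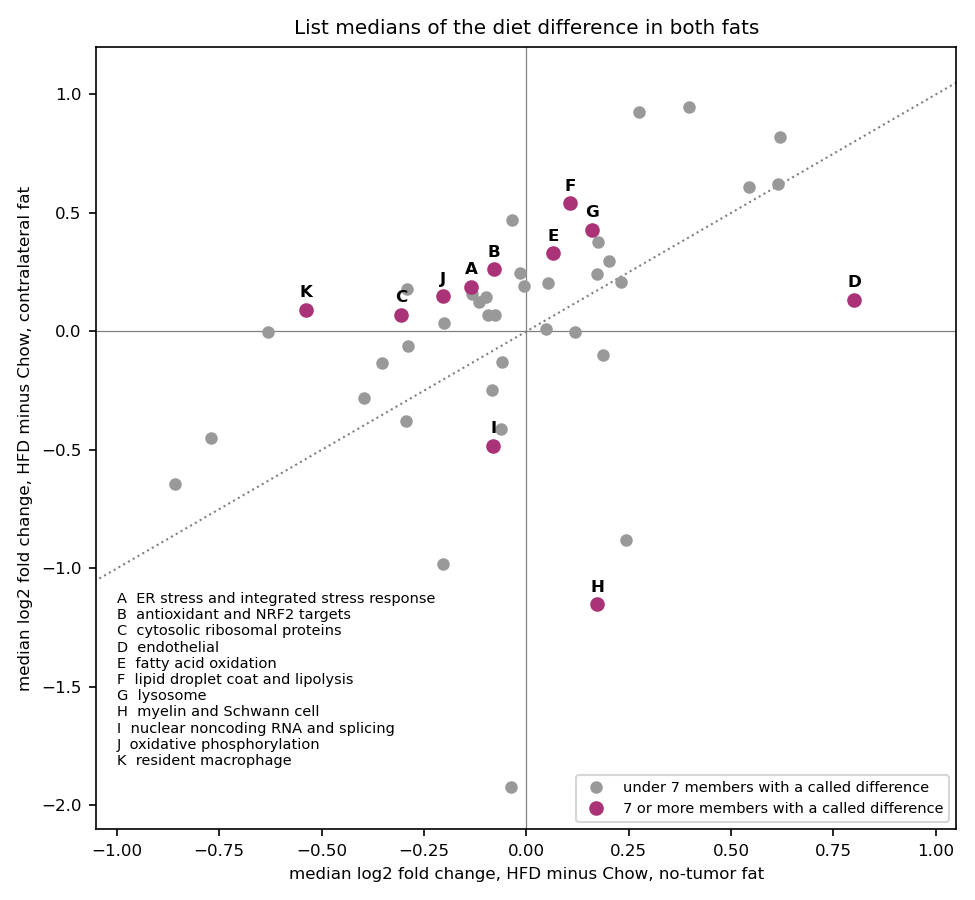
Median log2 fold change of HFD over Chow of each gene list with 8 or more tested members (muscle left out), in no-tumor fat on the horizontal and contralateral fat on the vertical axis, with a dotted line where they are equal. Lettered purple points, with their key at the lower left, are lists in which 7 or more members had a called difference between the fats: endothelial, Schwann cell and nuclear RNA lists lie below the line, the other 8 above it.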

How the data were processed

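Gene expression was measured by RNA sequencing of libraries depleted of ribosomal RNA. The deposited table holds raw counts per gene for 24 libraries and 39017 genes with Ensembl identifiers. Per the submitters' processing notes, mm10, TopHat and DESeq were used, with no versions, and the counting program, annotation and strand setting are not given in the sources used here. Groups came from the labels for diet and sample type. Replicate numbers were not used as pairs in the main fit. Correlations of deviations of same-numbered libraries ran from -0.0945 to 0.0747, which gives no sign of pairing but cannot exclude a shared batch.

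The 8 contralateral libraries were tested with edgeR 4.0.16 (R 4.3.3; quasi-likelihood F test, robust, TMM scaling, filterByExpr at min.count 10 and min.total.count 15), with Benjamini-Hochberg adjustment over all genes and a threshold of 0.05. The difference of diet effects was an interaction term over 16 libraries. CPM values used TMM factors over all 24 libraries. A standard error is the fold change over the square root of F. Alternatives were DESeq2 1.42.0, limma 3.58.1 voom, other scalings and filters, all libraries in 1 fit, a replicate block, and single libraries left out. A muscle covariate was run for the diet comparison only. Restricting to protein-coding genes and leaving out a pair of Chow libraries were chosen after seeing the data, also for the diet comparison only. The tests were also run on simulated counts in which few genes changed and no group carried extra muscle RNA. That checks the code and not the error rates in these data.

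The comparison, the 52 gene lists and the rule for named genes were chosen with earlier results of these data known. Genes named were up to 12 per direction with the lowest adjusted p, a log2 change of at least 1, at least 5 CPM and no overlap; per list up to 4 called in each direction and 2 not called; all members of the adipokine, fatty acid synthesis, lipolysis receptor, steroid and creatine lists; and the clearest differences between fats. Lamp1, Ctsd, Isg15, Irgm1, Trem2, Mmp12, Cd36, Csn3, Egfros and Airn were added after their values were seen. Some genes the rule names are not reported here, but they count in their lists. Gene types came from GENCODE M21 and promoter sequences from RefSeq on GRCm38.p6. No 2 replicates agreed within sampling noise. Depth was 11686381 to 17287693 counts per library.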

Additional observations from a re-analysis of the deposited data

Results flagged for a closer look

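In 70 groups of 4 libraries whose single values or range the text gives, 6 had a library that lay apart from the other 3 by more than Dixon's 95% limit, where chance gives about 1 in 20. Adipoq was 2772 CPM in HFD replicate 4 and lay apart above the other HFD libraries, and Lep was 372 CPM in Chow replicate 3, above the other Chow libraries and below every HFD library. Chow replicate 2 had the lowest total, at 11686381 counts, and the highest Gm42418 share, at 11.4% of counts. HFD replicate 2 had the highest Gm42418 share of its group, at 0.0363% of counts. Chow replicate 4 had 91.5 CPM of lymph node stroma markers.

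By edgeR's interaction term with adjustment over all genes, the diet effect in contralateral fat was compared with that in no-tumor fat. It differed for 76 of the 219 genes named in the text, against 19.9% of all 16676 genes tested. For 30 of the 76 it did so in every alternative run, which did not include the muscle covariate. Of the called differences whose values the text gives, it was more negative for Prx by -2.08 on the log2 scale (adjusted p = 2.87e-04), Kcna1 by -2.06 (adjusted p = 9.96e-06), Rbm4b by -1.07 (adjusted p = 9.96e-06), Ccnt2 by -0.66 (adjusted p = 4.70e-05), Neat1 by -1.53 (adjusted p = 4.95e-05) and Cdh5 by -0.64 (adjusted p = 0.0437), whose call was lost in 14 of 24 alternatives (edgeR adjusted p up to 0.103). It was more positive for Tspo by 0.80 (adjusted p = 1.38e-04), Chp1 by 0.59 (adjusted p = 3.76e-04) and Mmp9 by 1.40 (adjusted p = 2.61e-04). The rule for naming genes favored called ones, so the count of 76 is not a result about the named genes.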

How the results depend on the processing

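Counts of genes called between diets stayed within 1.5 times the reported ones in every alternative run except the muscle covariate, under which 1042 were higher and 1085 lower. Leaving out 1 contralateral library at a time gave 3498 to 3910 higher and 3398 to 3769 lower. Counts of genes whose diet effect differed between the fats were 625 more positive and 931 more negative with all 24 libraries in 1 fit, and leaving out 1 library at a time gave 1006 to 1954 and 1364 to 1799. The causes were not tested. Same-numbered libraries of the 2 diets had correlations of -0.0945, 0.0597, 0.0747 and 0.0167. Over all pairs of numbers the range was -0.113 to 0.154, so the values gave no sign of pairing but cannot exclude it. The replicate block gave 3742 higher and 3780 lower, and 1480 and 1542 for the difference between fats. Of 219 named genes, 123 kept direction and side of the threshold in every alternative, 51 changed only with the muscle covariate and 45 in another one. Gbp7 changed direction, to -0.0217, with the muscle covariate. Diet and depth cannot be told apart, and 4 libraries per group limit the precision of genes with a few CPM.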
